A study of Rattus norvegicus with 16 samples.

Results

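The erythroid and globin genes described here are 9 records of the deposited count table, taken by gene name from 32623 gene records in all: Hba-a1, LOC103694857, Alas2, Slc4a1, Gata1, Klf1, Epor, Ahsp and Epb42. They cover the globin chains, haem synthesis, the red cell membrane, and the factors and receptor that drive erythroid cells. RNA was measured in bone marrow, where these genes are at work, and in liver, where they serve as a gauge of blood content. The samples came from female Big Blue rats, all of which carry a transgenic vector with cII and lacI reporter genes, aged 6 weeks on arrival and given 1 week to acclimatise. Marrow NDEA and liver NDEA libraries came from rats gavaged with 10 mg/kg/day of N-nitrosodiethylamine for 28 days, and marrow control and liver control libraries from rats gavaged with 0 mg/kg/day. Tissue was collected 3 days after dosing ended, and each of the 4 groups held 4 libraries. NDEA is a nitrosamine that cytochrome P450 enzymes, most abundant in liver, turn into an agent that alkylates DNA.

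Red cells form in adult marrow from progenitors that carry the erythropoietin receptor, encoded by Epor. As these cells mature, the transcription factors Gata1 and Klf1 switch on the globin genes, the enzymes of haem synthesis and the proteins of the red cell membrane. The maturing cell then loses its nucleus, and the reticulocyte that enters the blood still holds globin transcripts, so that any tissue containing blood yields some globin RNA.

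The promoters of the members that were tested and that the RefSeq table of assembly GRCr8 holds with a GATA core are printed to show the letters that the erythroid factors are known to read, together with that of Hbb, the beta-globin gene on which much of the marrow comparison turned. Each runs from 250 bases before to 50 bases after the annotated start of the gene, 5′ to 3′ on the strand of the gene. The table held 6 of the 9 members, and LOC103694857, Slc4a1 and Ahsp are named only. Capitals mark the GATA core, searched as AGATAA or TGATAA, and the CACCC box that Klf1 binds, searched as CCNCNCCC, both on either strand.
Hba-a1 (chr10:15842531-15842830, minus strand): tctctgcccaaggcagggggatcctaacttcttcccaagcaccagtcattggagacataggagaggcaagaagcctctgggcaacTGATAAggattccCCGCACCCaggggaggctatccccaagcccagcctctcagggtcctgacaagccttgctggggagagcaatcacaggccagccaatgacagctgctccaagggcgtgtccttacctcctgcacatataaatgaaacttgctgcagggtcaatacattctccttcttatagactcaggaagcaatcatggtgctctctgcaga
Hbb (chr1:167663672-167663971, minus strand): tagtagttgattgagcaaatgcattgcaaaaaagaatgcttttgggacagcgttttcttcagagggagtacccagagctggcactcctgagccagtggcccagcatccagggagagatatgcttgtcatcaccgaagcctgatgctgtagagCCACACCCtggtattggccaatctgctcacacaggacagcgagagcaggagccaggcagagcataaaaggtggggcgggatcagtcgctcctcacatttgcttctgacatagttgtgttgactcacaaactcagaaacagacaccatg
Alas2 (chrX:22895200-22895499, plus strand): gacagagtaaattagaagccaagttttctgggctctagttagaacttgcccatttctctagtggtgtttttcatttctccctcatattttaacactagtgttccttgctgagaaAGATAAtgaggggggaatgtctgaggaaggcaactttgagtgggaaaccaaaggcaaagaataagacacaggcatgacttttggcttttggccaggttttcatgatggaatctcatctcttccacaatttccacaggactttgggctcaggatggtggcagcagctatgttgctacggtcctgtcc
Klf1 (chr19:40158602-40158901, minus strand): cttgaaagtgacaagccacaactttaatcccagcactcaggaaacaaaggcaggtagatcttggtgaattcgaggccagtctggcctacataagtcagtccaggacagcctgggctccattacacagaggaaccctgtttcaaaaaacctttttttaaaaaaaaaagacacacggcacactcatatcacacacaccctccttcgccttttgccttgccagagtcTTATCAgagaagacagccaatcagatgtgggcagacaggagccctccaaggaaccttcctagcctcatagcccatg
Epor (chr8:28770273-28770572, minus strand): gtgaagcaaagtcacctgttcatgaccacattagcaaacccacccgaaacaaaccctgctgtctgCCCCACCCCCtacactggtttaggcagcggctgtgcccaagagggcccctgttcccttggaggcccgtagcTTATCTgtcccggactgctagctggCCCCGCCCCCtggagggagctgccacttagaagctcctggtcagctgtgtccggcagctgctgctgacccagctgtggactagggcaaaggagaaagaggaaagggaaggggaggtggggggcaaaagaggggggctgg
The GATA core was present in 4 of the 6 member promoters, those of Hba-a1, Alas2, Klf1 and Epor, and in 18.9% of 33469 promoters of the same length of 300 bases. The CACCC box was present in 3 of the 6, those of Hba-a1, Gata1 and Epor, in that of Hbb, and in 46.3% of all promoters. In Hba-a1 the first base of the core was at -165 and that of the box at -152 from the start, and the Hba-a2 promoter, a neighbouring alpha-globin copy, was identical to that of Hba-a1 at 288 of 300 bases. Epor held 4 box matches as 2 separate stretches of 2 overlapping matches each, which began at -185 and -89. The promoter of Epb42 held neither motif. These matches describe letters and say nothing of binding in these animals.

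Marrow libraries held 2162182 to 5705705 counts and liver libraries 5000844 to 6863592. Marrow control 1 was the shallowest. The labels fitted the tissue: Alb, serum albumin, was never under 67800 CPM in liver (CPM, the counts of a gene scaled to a common total of all counts per library) and never over 0.438 CPM in marrow, while Mpo, a myeloid granule enzyme, was at 395 to 606 CPM in marrow and at 0 in liver. Several marrow libraries stood apart. Marrow NDEA 4 and 3 detected 9101 and 10144 genes, the fewest of the 8 marrow libraries, and mitochondrially encoded transcripts took 15.8% and 15.2% of their counts. Those transcripts took 13.0% of marrow control 3, against 6.41% to 8.65% of the other 3 controls. Markers of skeletal muscle summed to 74.2 to 94.6 CPM in marrow NDEA libraries and to 204.7 to 547 CPM in marrow control libraries, with all 11 matched markers detected in both groups and all 10 tested markers estimated lower after NDEA. Granulocyte markers summed to 23840 to 40080 CPM in marrow NDEA and to 30320 to 33510 CPM in marrow control, with Ltf at 0 in both. Ribosomal protein genes summed to 6660 to 11430 CPM in marrow NDEA and to 8453 to 16920 CPM in marrow control. The part of these shifts in the erythroid values was not tested except through the fits named beside the results. In bulk RNA, fewer erythroid cells and less RNA per erythroid cell cannot be told apart. The labels do not say whether liver and marrow libraries of the same number came from the same rat.

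In marrow, LOC103694857, Alas2 and Klf1 had a lower mean in NDEA libraries and Epor a higher one, each at an unadjusted limma-voom p under 0.05. The groups overlapped for all but LOC103694857, and no member passed the test over all genes. Hba-a1 and Ahsp also had lower means in NDEA libraries, and Slc4a1 and Epb42 higher ones, at an unadjusted limma-voom p above 0.05. By limma-voom, 0 of 9239 tested genes had an adjusted p under 0.05 (0% called), and 1336 had an unadjusted p under 0.05; limma-trend also called 0. Of the 9 members 8 passed the filter on low counts, Gata1 being listed at 0, and 3 of the 8 (LOC103694857, Alas2 and Klf1) had a lower and 1 (Epor) a higher estimate at an unadjusted p under 0.05, against 8.62% of all tested genes lower and 5.84% higher. Estimates were below 0 for 5 of the 8 and for 55.7% of all tested genes. The groups did not overlap for 1 of the 8, LOC103694857, and for 5.61% of all tested genes (3.06% with NDEA the lower group). Overlap in these counts was judged on log2 values scaled as in the fit, which can differ from overlap in the CPM printed here. The median log2 fold change, NDEA over control, was -0.38 over the 8 members and -0.10 over all tested genes. It was -0.19 over the members and 0.01 over all genes without marrow NDEA 3 and 4, and -0.17 over the members and -0.01 over all genes with mitochondrial share held constant. The plot of the members by library shows the spread behind these counts.

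**Figure D1:**
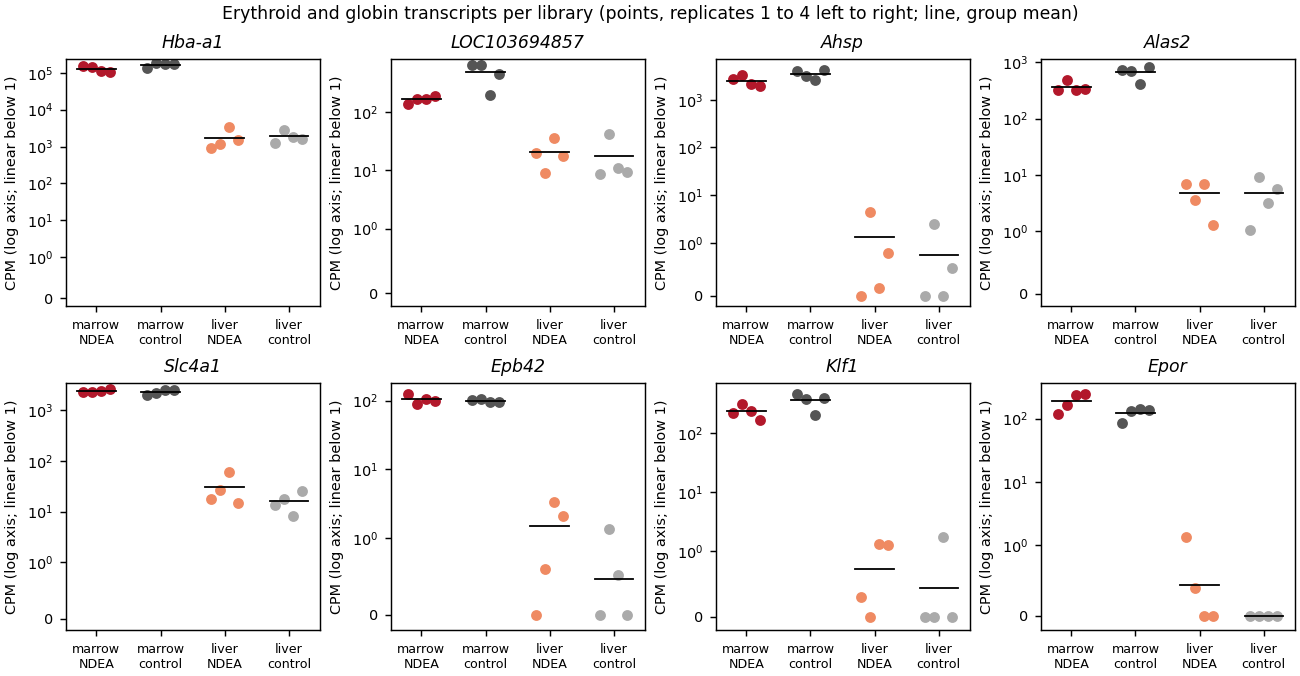
CPM of 8 members in each library, on an axis that is logarithmic above 1 CPM and linear below it; points are replicates 1 to 4 from left to right and lines are group means (n = 4), with marrow NDEA, marrow control, liver NDEA and liver control from left to right. Each of the 8 was far higher in marrow than in liver, and LOC103694857 alone among them had all 4 marrow NDEA libraries (136.1 to 183.5 CPM) below all 4 marrow control libraries (191.0 to 642.9 CPM).

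Among the globin counts of marrow, alpha-globin was the larger part, with 3.08 to 7.48 alpha-globin counts per beta-globin count. This ratio depends on how reads that fit several copies were counted, which is not known. Hba-a1 (ENSRNOG00000029886, chromosome 10, position 15602794 in the table, whose build is not given in the sources used here) encodes an adult alpha-globin chain. It stood at 148500, 142900, 109800 and 107400 CPM in marrow NDEA libraries 1 to 4, against 131800, 180700, 172400 and 171300 CPM in marrow control libraries 1 to 4. Marrow NDEA 3 and 4 were the lowest of the 8, and marrow control 1 fell among the NDEA libraries, so the groups overlapped. The means were 127100 ± 21530 CPM in marrow NDEA and 164000 ± 21890 CPM in marrow control (SD, n = 4 each). The log2 fold change was -0.34 (SE 0.22, limma-voom adjusted p = 0.47), and without marrow NDEA 3 and 4 it was -0.18. Hba-a2, the copy next to it, stood at 60670 to 71750 CPM in marrow NDEA and at 72650 to 82330 CPM in marrow control (log2 fold change -0.20 ± 0.21 SE, adjusted p = 0.65 by limma-voom). Its groups were apart in CPM and overlapped in the scaled values of the fit. The summed share of all 11 globin records was lower on average in NDEA libraries and did not pass the test. Globins took 25.3%, 25.6%, 21.3% and 22.3% of the counts of marrow NDEA libraries 1 to 4 and 23.7%, 28.7%, 28.9% and 29.6% of those of marrow control libraries 1 to 4. The difference of the means was -4.12 percentage points (23.6 ± 2.135% in NDEA, 27.7 ± 2.73% in control, SD, n = 4 each; exact permutation test, two-sided, p = 0.086, where 0.029 is the smallest the 70 groupings allow). As a percent of counts without mitochondrial transcripts the difference was -3.47 percentage points (exact permutation test, two-sided, p = 0.11).

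The beta-globin records behaved unlike each other. LOC103694857 (ENSRNOG00000061299, chromosome 1, position 168957460, annotated as haemoglobin subunit beta-2) stood at 136.1, 163.9, 167.5 and 183.5 CPM in marrow NDEA libraries 1 to 4, against 642.9, 640.2, 191.0 and 445.7 CPM in marrow control libraries 1 to 4. All 4 NDEA libraries were below all 4 controls, and marrow control 3 lay just above the NDEA range. The log2 fold change was -1.38 (SE 0.29, unadjusted p = 1.6e-04, limma-voom adjusted p = 0.25), the largest in size among the 8 tested members. Without marrow control 3, the control nearest the NDEA libraries, it was -1.73 with a limma-voom adjusted p of 0.0016. The fit of all 8 libraries did not make that call. Leaving this control out widens the difference for this record, and 2.3% of all 9096 genes tested without it were called lower. The log2 fold change was -1.13 with mitochondrial share held constant, -1.55 without marrow NDEA 3 and 4, and -1.24 without marrow control 1. None of these was called (limma-voom adjusted p = 0.42, 0.82 and 0.47). Hbb (ENSRNOG00000058105, chromosome 1, position 168971274), annotated as haemoglobin subunit beta, split the libraries in a like way, with 1150, 867, 1217 and 1567 CPM in marrow NDEA and 5278, 4913, 1206 and 2913 CPM in marrow control. Marrow control 3 here lay inside the NDEA range and the other 3 controls above it (log2 fold change -1.36 ± 0.34 SE, adjusted p = 0.25 by limma-voom). Without marrow control 3 the Hbb estimate was -1.77 with a limma-voom adjusted p of 0.0043. It was -1.19 with mitochondrial share held constant, -1.65 without marrow NDEA 3 and 4, and -1.14 without marrow control 1. Hbb was not called in those fits (limma-voom adjusted p = 0.58, 0.82 and 0.47).

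LOC103694855 (ENSRNOG00000047098, chromosome 1, position 168945449, annotated as haemoglobin subunit beta-2-like) held most of the beta-globin counts in marrow. It stood at 31600, 39830, 40960 and 52830 CPM in marrow NDEA libraries 1 to 4 and at 23610, 28340, 34200 and 38480 CPM in marrow control libraries 1 to 4. The groups overlapped, with the estimate higher after NDEA (log2 fold change 0.44 ± 0.25 SE, adjusted p = 0.40 by limma-voom). The beta-globin records are close copies lying within a cluster, from position 168945449 to 168971274. A 3′ read that fits several of them may be split, assigned to 1 of them or left out. The level of each, and of their sum, is thus uncertain. For the same reason the alpha-globin copies Hba-a1, Hba-a2 and Hba-a3 are best read as a sum, itself uncertain if such reads were left out.

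The share of each record in the beta-globin counts of a library does not depend on how libraries are scaled; it was computed after the levels had been seen and is a description. Hbb made up 3.496%, 2.12%, 2.88% and 2.87% of beta-globin counts in marrow NDEA libraries 1 to 4, and 17.9%, 14.5%, 3.39% and 6.96% in marrow control libraries 1 to 4. LOC103694857 made up 0.336% to 0.414% in marrow NDEA and 0.537% to 2.18% in marrow control. The shares of LOC103694857 and Hbb were thus narrow across the NDEA libraries and wide across the controls, with marrow control 3 nearest the NDEA libraries for both. In liver Hbb made up 69.5% to 72.3% in NDEA libraries and 66.0% to 73.9% in control libraries, far above any marrow library, and LOC103694855 made up 20.7% to 25.3% in liver NDEA and 22.55% to 25.8% in liver control. Within a library, LOC103694857 had 117.1 to 189.0 counts per 1000 Hbb counts in marrow NDEA and 121.8 to 158.3 in marrow control, so the groups overlapped in that ratio.

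**Figure D2:**
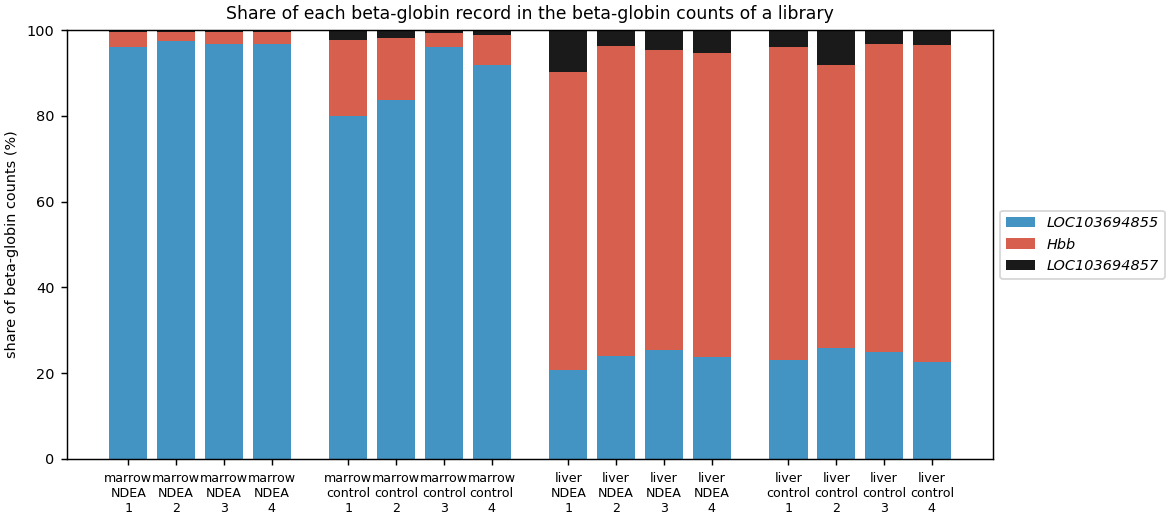
Share of each of 3 beta-globin records in the beta-globin counts of a library (%), 1 stacked bar per library, with NDEA left of control in each tissue. LOC103694855 held 96.09% to 97.5% in marrow NDEA and 79.95% to 96.07% in marrow control, while Hbb held most of the counts in all 8 liver libraries.

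The minor globin records were scarce. Hba-a3 stood at 62.8 to 143.1 CPM in marrow NDEA and at 92.0 to 169.0 CPM in marrow control. Hbe1, an embryonic epsilon-type chain, had 22, 14, 0 and 0 counts in marrow NDEA libraries 1 to 4 and 18, 52, 7 and 26 counts in marrow control libraries 1 to 4, so its estimate (log2 fold change -3.08 ± 1.52 SE, adjusted p = 0.36 by limma-voom) rests on few reads. Of the 7 tested globin records 6 had a lower estimate and 1 a higher one, with a median log2 fold change of -0.52, and 0 were called. Ahsp (ENSRNOG00000020165, chromosome 1, position 199720038), a chaperone that holds free alpha-globin until it joins a beta chain, stood at 2708, 3333, 2101 and 1948 CPM in marrow NDEA libraries 1 to 4, against 4025, 3092, 2618 and 4135 CPM in marrow control libraries 1 to 4. Marrow NDEA 3 and 4 were the lowest and the groups overlapped (log2 fold change -0.43 ± 0.22 SE, adjusted p = 0.37 by limma-voom; -0.20 without marrow NDEA 3 and 4, and -0.14 with mitochondrial share held constant). Per 1000 Hba-a1 counts, Ahsp had 18.1 to 23.3 in marrow NDEA and 15.2 to 30.5 in marrow control.

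In haem synthesis, Alas2 (ENSRNOG00000000167, chromosome X, position 23167696), the erythroid enzyme of the first and rate-limiting step, lay lower in 3 NDEA libraries than in any control. It stood at 323.3, 479.0, 325.2 and 341.2 CPM in marrow NDEA libraries 1 to 4, against 714.6, 702.2, 415.7 and 813.8 CPM in marrow control libraries 1 to 4. Marrow control 3 fell below marrow NDEA 2, the sole overlap. The log2 fold change was -0.79 (SE 0.23, unadjusted p = 0.0025, limma-voom adjusted p = 0.25), and without marrow control 3 it was -0.96 with a limma-voom adjusted p of 0.021. It was -0.54 with mitochondrial share held constant, -0.72 without marrow NDEA 3 and 4, and -0.78 without marrow control 1. None of these was called (limma-voom adjusted p = 0.999, 0.82 and 0.47). Over the 15 tested haem synthesis genes 7 estimates were higher and 8 lower, 0 were called, and the median log2 fold change was -0.11. Alad, which joins the product of Alas2 into porphobilinogen, stood at 578.8, 609.6, 832.7 and 988.1 CPM in marrow NDEA libraries 1 to 4 and at 500.9, 417.2, 584.7 and 556.7 CPM in marrow control libraries 1 to 4, with its NDEA libraries 3 and 4 the highest (log2 fold change 0.56 ± 0.24 SE, adjusted p = 0.31 by limma-voom; 0.20 without marrow NDEA 3 and 4). Tmem14c, a mitochondrial membrane protein needed for haem synthesis in mouse erythroid cells, stood at 198.3 to 482.3 CPM in marrow NDEA and at 210.0 to 1148 CPM in marrow control, with marrow control 1 highest (log2 fold change -0.78 ± 0.36 SE, adjusted p = 0.33 by limma-voom; -1.17 with an adjusted p of 0.036 without marrow control 3). It was -0.45 without marrow control 1, -0.36 without marrow NDEA 3 and 4, and -0.0024 with mitochondrial share held constant.

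The members of the red cell membrane stayed within a narrow range. Slc4a1 (ENSRNOG00000020951, chromosome 10, position 90296141) encodes band 3, the chloride and bicarbonate exchanger of the red cell. It stood at 2267, 2260, 2390 and 2604 CPM in marrow NDEA libraries 1 to 4, against 1970, 2136, 2455 and 2531 CPM in marrow control libraries 1 to 4. Epb42 (ENSRNOG00000011649, chromosome 3, position 112965653), protein 4.2, which links band 3 to the cytoskeleton, stood at 125.8, 89.9, 104.9 and 99.3 CPM in marrow NDEA libraries 1 to 4, against 100.8, 107.1, 96.0 and 94.8 CPM in marrow control libraries 1 to 4. The groups overlapped for both, and no library of Slc4a1 lay outside 1970 to 2604 CPM. The log2 fold change was 0.11 for Slc4a1 (SE 0.21, limma-voom adjusted p = 0.83) and 0.09 for Epb42 (SE 0.22, limma-voom adjusted p = 0.86), and the sign of each turned with mitochondrial share held constant. Over the 23 tested membrane genes 10 estimates were higher and 13 lower, 0 were called, and the median log2 fold change was -0.06. Tmod1, which caps actin filaments of the membrane skeleton, stood at 71.0 to 99.9 CPM in marrow NDEA and 31.9 to 78.5 CPM in marrow control (log2 fold change 0.76 ± 0.29 SE, adjusted p = 0.27 by limma-voom; 0.36 with mitochondrial share held constant). Aqp1, the water channel, averaged 820.0 ± 72.7 CPM in marrow NDEA and 882.7 ± 126.7 CPM in marrow control, and Rhd, an Rh antigen, 323.1 ± 55.2 CPM in marrow NDEA and 432.1 ± 153.1 CPM in marrow control (SD, n = 4 each).

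Of the erythroid factors, Gata1 (ENSRNOG00000025534, chromosome X, position 15378789), the master regulator of the lineage, was listed at 0 in all 16 libraries. So was a second record on chromosome X annotated as erythroid transcription factor, LOC108348091. Genes that every cell uses were also listed at 0 in all 16 libraries, among them 3 of 24 ribosomal protein records (Rpl8, Rplp2 and Rpl35a), so this listing gives no level for Gata1. Klf1 (ENSRNOG00000003443, chromosome 19, position 26016382), the activator of adult beta-globin genes, stood at 219.8, 308.1, 230.5 and 166.7 CPM in marrow NDEA libraries 1 to 4, against 456.9, 380.4, 203.2 and 382.9 CPM in marrow control libraries 1 to 4. Marrow controls 1, 2 and 4 were above the NDEA range and marrow control 3 lay inside it (log2 fold change -0.55, SE 0.24, unadjusted p = 0.034, limma-voom adjusted p = 0.31; -0.76 with an adjusted p of 0.064 without marrow control 3). With mitochondrial share held constant it was -0.20 (limma-voom adjusted p = 0.999). Over the 14 tested erythroid factors 7 estimates were higher and 7 lower, 0 were called, and the median log2 fold change was 0.02. Tal1, a partner of Gata1 in its complex, averaged 367.6 ± 74.7 CPM in marrow NDEA and 401.2 ± 68.9 CPM in marrow control, and Zfpm1, the Gata1 cofactor known as FOG1, 324.3 ± 55.2 CPM in marrow NDEA and 266.0 ± 85.5 CPM in marrow control (SD, n = 4 each). Gata2, the factor of earlier progenitors, averaged 88.1 ± 12.1 CPM in marrow NDEA and 63.5 ± 18.9 CPM in marrow control (log2 fold change 0.48 ± 0.27 SE, adjusted p = 0.40 by limma-voom). Bcl11a, a repressor of embryonic and fetal globin genes, averaged 15.5 ± 10.1 CPM in marrow NDEA and 25.04 ± 8.63 CPM in marrow control (log2 fold change -0.78 ± 0.42 SE, adjusted p = 0.39 by limma-voom).

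Epor (ENSRNOG00000012619, chromosome 8, position 22969745), the receptor through which erythropoietin keeps progenitors alive, was the member with the highest estimate after NDEA. It stood at 117.6, 162.6, 240.1 and 247.2 CPM in marrow NDEA libraries 1 to 4, against 85.1, 130.4, 142.7 and 135.0 CPM in marrow control libraries 1 to 4. Marrow NDEA 3 and 4 were well above every control, marrow NDEA 2 slightly above, and marrow NDEA 1 below 3 of the 4 controls. The log2 fold change was 0.61 (SE 0.28, unadjusted p = 0.045, limma-voom adjusted p = 0.33). Leaving out marrow NDEA 3 and 4 gave 0.16, and a fit that held the mitochondrial share constant gave 0.17. Over the 12 tested genes of erythropoietin signalling 6 estimates were higher and 6 lower, 0 were called, and the median log2 fold change was -0.04. Ccnd3, the D-type cyclin that sets the number of divisions of mouse erythroid precursors, stood at 213.6 to 523.7 CPM in marrow NDEA and at 342.7 to 1100 CPM in marrow control (log2 fold change -0.86 ± 0.29 SE, adjusted p = 0.25 by limma-voom; -1.08 with an adjusted p of 0.037 without marrow control 3). It was -0.46 without marrow NDEA 3 and 4 and -0.26 with mitochondrial share held constant. Stat5a, a transcription factor activated through the receptor, averaged 17.85 ± 9.80 CPM in marrow NDEA and 32.15 ± 4.00 CPM in marrow control (log2 fold change -0.98 ± 0.40 SE, adjusted p = 0.28 by limma-voom). Ptpn6, the phosphatase that ends the signal, averaged 196.9 ± 73.6 CPM in marrow NDEA and 244.0 ± 36.1 CPM in marrow control (log2 fold change -0.33 ± 0.24 SE, adjusted p = 0.51 by limma-voom).

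**Figure D3:**
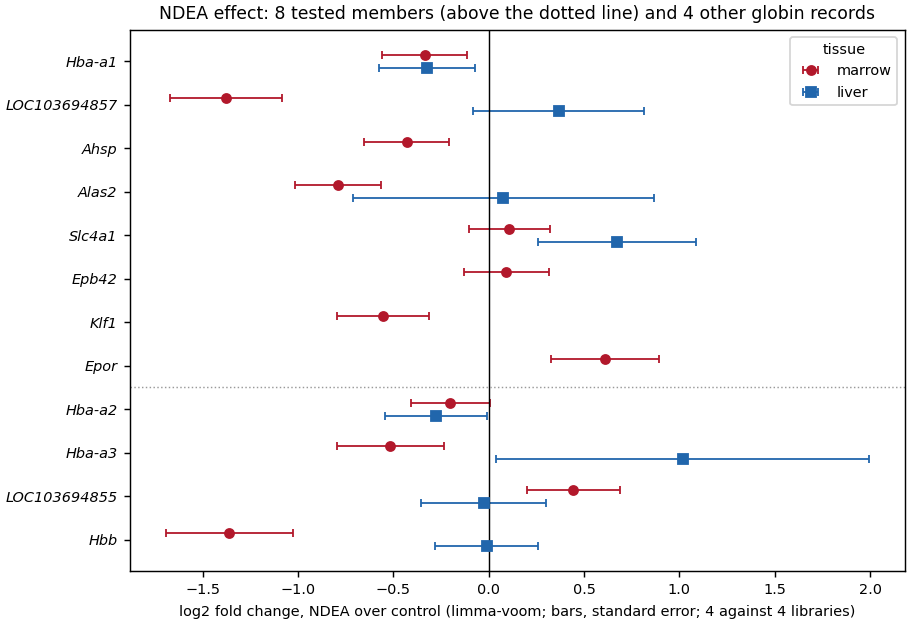
Log2 fold change, NDEA over control, of 8 members (above the dotted line) and 4 other globin records (below it) in marrow and, where tested, in liver; bars are standard errors of the limma-voom fit of 4 against 4 libraries. LOC103694857 (-1.38) and Hbb (-1.36) lay lowest in marrow and near or above 0 in liver, and Epor (0.61) lay highest among the members in marrow.

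Among genes of late red cell maturation and of iron handling no gene was called in marrow either. Of 23 tested genes of late maturation 15 had a lower and 8 a higher estimate, with 0 called and a median log2 fold change of -0.33. At an unadjusted p under 0.05, 6 of the 23 were lower and 1 higher, beside the 8.62% lower and 5.84% higher of all tested genes. Isg20, an RNA exonuclease, stood at 34.6, 23.7, 21.6 and 19.0 CPM in marrow NDEA libraries 1 to 4 and at 80.9, 43.7, 39.5 and 52.7 CPM in marrow control libraries 1 to 4, without overlap (log2 fold change -1.04 ± 0.30 SE, adjusted p = 0.25 by limma-voom). Tent5c, a poly(A) polymerase, did not overlap either, at 21.2 to 26.9 CPM in marrow NDEA and 36.0 to 69.8 CPM in marrow control (log2 fold change -0.96 ± 0.29 SE, adjusted p = 0.25 by limma-voom). In both, marrow control 3 was the lowest of the controls and still above every NDEA library. Isg20 and Tent5c were named for the smallest p of the list, a choice that favours genes without overlap. The groups did not overlap, with NDEA the lower, for 3 of the 23 genes and for 3.06% of all tested genes. Gpx1, a glutathione peroxidase and the most abundant of the list, averaged 3081 ± 300.4 CPM in marrow NDEA and 2842 ± 823.5 CPM in marrow control, and Car2, a carbonic anhydrase, 1083 ± 262.3 CPM in marrow NDEA and 1449 ± 290.1 CPM in marrow control (SD, n = 4 each). Without marrow control 3, 3 genes of the list were called lower, Blvrb, Car1 and Cat, where 2.3% of all 9096 genes tested in that fit were called lower. The median of the list was -0.20 without marrow NDEA 3 and 4 and -0.15 with mitochondrial share held constant.

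Of the 12 tested genes of erythroid iron handling 6 estimates were higher and 6 lower, 0 were called, and the median log2 fold change was -0.02. Tfrc, the transferrin receptor that brings iron into erythroblasts, averaged 1310 ± 342.2 CPM in marrow NDEA and 1165 ± 228.8 CPM in marrow control (SD, n = 4 each), a log2 fold change of 0.18 (SE 0.24, limma-voom adjusted p = 0.74). Fth1, the ferritin heavy chain, stood at 295.8, 286.9, 220.1 and 260.5 CPM in marrow NDEA libraries 1 to 4 and at 813.1, 646.2, 258.7 and 466.3 CPM in marrow control libraries 1 to 4. Marrow control 3 again sat within the NDEA range (log2 fold change -0.88 ± 0.26 SE, adjusted p = 0.25 by limma-voom; -1.16 with an adjusted p of 0.014 without marrow control 3, and -0.57 with mitochondrial share held constant). Slc25a28, which carries iron into mitochondria, stood at 128.8 to 261.2 CPM in marrow NDEA and 81.4 to 158.5 CPM in marrow control (log2 fold change 0.78 ± 0.30 SE, adjusted p = 0.27 by limma-voom). It was 0.31 without marrow NDEA 3 and 4 and 0.18 with mitochondrial share held constant. Hmox1, which breaks haem down, averaged 866.1 ± 278.9 CPM in marrow NDEA and 938.4 ± 309.7 CPM in marrow control (SD, n = 4 each).

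Ratios within a library, which scaling cannot alter, were formed after the levels had been seen and are given as a description. Epor had 0.535, 0.528, 1.04 and 1.48 counts per Klf1 count in marrow NDEA libraries 1 to 4, and 0.186, 0.343, 0.702 and 0.353 in marrow control libraries 1 to 4. Marrow control 3 was the sole control above any NDEA library. Across the 8 libraries the ratio was largest where the mitochondrial share was largest, in marrow NDEA 4 and 3 and then in marrow control 3. Alas2 had 2.18, 3.35, 2.96 and 3.18 counts per 1000 Hba-a1 counts in marrow NDEA libraries 1 to 4, and 5.42, 3.89, 2.41 and 4.75 in marrow control libraries 1 to 4, again with marrow control 3 inside the NDEA range. Slc4a1 had 15.3, 15.8, 21.8 and 24.25 counts per 1000 Hba-a1 counts in marrow NDEA libraries 1 to 4, all above the 11.8 to 14.9 of marrow control. Marrow NDEA 3 and 4, which had the fewest Hba-a1 CPM, had the highest of these ratios. Marrow NDEA 1 (15.27) lay close to marrow control 1 (14.94). The gap between the groups in Slc4a1 per Hba-a1 was not tested, and 5.61% of all genes tested in marrow had levels that did not overlap. The alpha-globin counts per beta-globin count were 6.68, 5.255, 4.03 and 3.08 in marrow NDEA libraries 1 to 4 and 6.07 to 7.48 in marrow control.

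**Figure D4:**
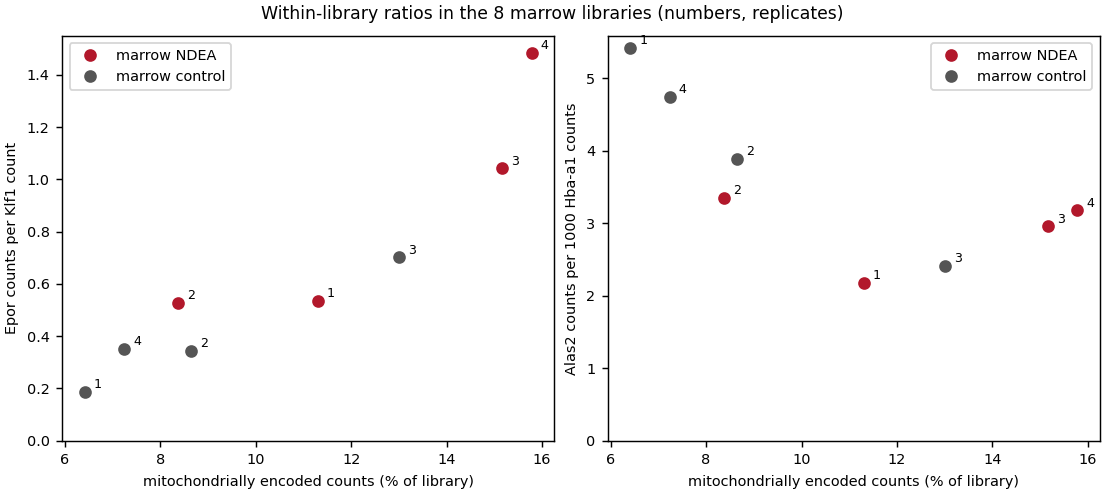
Epor counts per Klf1 count (left) and Alas2 counts per 1000 Hba-a1 counts (right) against the mitochondrially encoded share of counts (%), 1 point per marrow library with its replicate number, NDEA and control coloured apart. Marrow control 3 (13.0% mitochondrial) lies with the NDEA libraries in both panels.

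Over the 8 marrow libraries the members did not vary as 1 block. The log2 CPM of Alas2 had a Pearson r of 0.89 with LOC103694857, 0.88 with Klf1 and 0.84 with Ahsp. Epor had an r of -0.75 with Klf1 and -0.80 with Ahsp, and 0.78 with Slc4a1. Hba-a1 was loosely tied to the others, with an r of 0.48 with Ahsp, 0.45 with Alas2 and 0.24 with LOC103694857. These libraries share their groups, their depth and their mitochondrial share, so the values are a description. The genes most like the mean standardised profile of the 8 tested members, among 4740 expressed genes, were Mgst1 (Pearson r 0.93), Sh3bgrl3 (0.90), Scoc (0.90), Acsl5 (0.89), Klhdc10 (0.89), Oxr1 (0.89), Psenen (0.89), Mapk14 (0.88), Pla2g2a (0.88) and Akirin1 (0.87), over 8 libraries. Because Epor ran against Klf1 and Ahsp, this mean profile does not follow each member. The highest of 4740 correlations over 8 libraries are high in part through being picked, so the list is a description.

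In liver, where erythroid RNA gauges blood content, the members were far lower. Hba-a1 stood at 919.3, 1189, 3385 and 1506 CPM in liver NDEA libraries 1 to 4, against 1281, 2791, 1843 and 1599 CPM in liver control libraries 1 to 4. Liver NDEA 3 was the highest of the 8 and the groups overlapped (log2 fold change -0.32 ± 0.25 SE, adjusted p = 0.53 by limma-voom). Without liver NDEA 3 it was -0.72 and passed the test (limma-voom adjusted p = 0.013). All globins together took 0.146%, 0.182%, 0.551% and 0.238% of counts in liver NDEA libraries 1 to 4 and 0.198%, 0.420%, 0.287% and 0.240% in liver control libraries 1 to 4. The means, 0.279 ± 0.185% in NDEA and 0.286 ± 0.0964% in control, differed by less than the spread (SD, n = 4 each; exact permutation test, two-sided, p = 0.91). The mean level in control marrow was 87.3 times that in control liver for Hba-a1, 382.8 times for LOC103694855, 27.4 times for LOC103694857 and 15.35 times for Hbb, so the beta-globin records differed widely among themselves between the tissues. By the same measure the fold was 139.6 for Alas2 and 140.2 for Slc4a1.

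Of the 9 members 4 passed the filter in liver, and 0 of those were called, where 6.61% of 9668 tested genes were called. LOC103694857 stood at 19.8, 8.80, 35.3 and 17.7 CPM in liver NDEA libraries 1 to 4, against 8.56, 41.5, 10.8 and 9.24 CPM in liver control libraries 1 to 4 (log2 fold change 0.37 ± 0.45 SE, adjusted p = 0.72 by limma-voom). Liver control 2, which had the most globin among the controls, was also the highest for this record. Alas2 was at 1.28 to 7.00 CPM in liver NDEA and 1.03 to 9.11 CPM in liver control, and Slc4a1 at 15.0 to 61.2 CPM in liver NDEA and 8.35 to 25.04 CPM in liver control, with overlap for both (limma-voom adjusted p = 0.97 and 0.41). Klf1, Ahsp, Epb42 and Epor stayed at 4.40 CPM or less in every liver library, and Epor had 0 counts in all 4 liver controls. Liver alpha-globin counts per beta-globin count were 6.25, 6.43, 6.28 and 6.16 in NDEA libraries 1 to 4 and 8.19, 7.28, 7.38 and 8.14 in control libraries 1 to 4. These groups did not overlap, which was seen after the ratio was formed and was not tested, and 12.5% of all genes tested in liver had levels that did not overlap.

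Whether the NDEA effect in marrow differed from that in liver was asked of all 16 libraries through an interaction term, where 2.28% of 11261 genes were called and the median log2 difference, marrow minus liver, was -0.32. None of the 4 members tested in both tissues passed. The log2 difference was -1.79 for LOC103694857 (SE 0.66, limma-voom adjusted p = 0.17), -0.88 for Alas2 (SE 0.89, limma-voom adjusted p = 0.67), -0.62 for Slc4a1 (SE 0.47, limma-voom adjusted p = 0.53) and -0.05 for Hba-a1 (SE 0.37, limma-voom adjusted p = 0.97). Without marrow control 3 that of LOC103694857 was -2.13 and passed (limma-voom adjusted p = 0.018). Car2, whose product is carbonic anhydrase of red cells and of other cells, was the named gene with a called difference, -1.65 (SE 0.39, limma-voom adjusted p = 0.024), having risen in NDEA liver (log2 fold change 1.21 ± 0.31 SE, adjusted p = 0.018 by limma-voom) with no call in marrow (log2 fold change -0.39 ± 0.22 SE, adjusted p = 0.40 by limma-voom).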

How the data were processed

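RNA from 16 libraries of liver and bone marrow was read with QuantSeq 3′ FWD kits, which count the 3′ ends of polyadenylated transcripts, so a count does not scale with gene length. The authors deposited whole read counts per gene, and CPM and log2 values were computed from those deposited counts. Per the submitters' processing notes, the authors used STAR and DESeq2, with no version named; the sources used here give no counter, genome build or annotation. Of 32635 deposited lines, 12 records were broken and were rejoined, which left 32623 gene records, 16658 of them at 0 in every library. Group totals deposited beside 16313 records matched the summed counts with 0 mismatches. Because a plain reading of the broken lines puts decimals under the count columns, their unit was recorded as other, and limma-voom (limma 3.58.1, R 4.3.3) was the test in place of a count test.

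Each tissue was fitted alone, NDEA minus control, on treatment alone. To be tested, a gene needed at least 15 counts in all and, in 4 or more libraries, a CPM no lower than 10 counts would give in a library of median size. Scaling used trimmed means of M values (trims 0.3 and 0.05), log2 values a prior of 0.5 counts, and p-values were adjusted over all tested genes by the Benjamini-Hochberg method; a call is an adjusted p under 0.05. CPM values in the text divide by all counts of a library. Genes whose groups did not overlap were counted on the scaled log2 values, in which overlap can differ from that in CPM. The treatment-by-tissue term used all 16 libraries. Globin shares were compared by an exact permutation test. The fits were also run on simulated counts, drawn independently for each gene and library. No shift shared by genes of a library was simulated, so that run does not bear on the marrow libraries that stood apart.

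The members and the gene lists (10 of pathways, 10 of markers, 317 of 342 entries matched) were chosen with earlier results of these data known. Named genes are the members, in each of 7 erythroid lists the 2 best expressed and the 2 with the smallest p in marrow, and the 10 genes most like the members' profile whose average log2 CPM was 4 or more; Alb and Mpo are checks. A few genes that this rule names are not reported here. Blvrb, Car1 and Cat were named after their values were seen. Ratios to Gata1 had been planned and could not be formed, since Gata1 was listed at 0; the ratios printed replaced them. The labels describe separately dosed rats but not which rat gave which library, and p-values measure the spread between libraries. The labels name no molecular identifiers. Alternatives were other scalings, filters and weights, a replicate block, the mitochondrial share as a covariate, all libraries in one fit, and each library left out. Same-numbered NDEA and control libraries were correlated to check whether numbers pair them. Promoters and gene names came from RefSeq tables of GRCr8. The dose of 5 mg/kg/day and the positive control in the labels were not analysed here.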

Additional observations from a re-analysis of the deposited data

Results flagged for a closer look

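In 5 of 43 groups of 4 libraries 1 library lay far from the other 3, its gap to the nearest exceeding 0.829 of the group's range. Chance flags about 1 in 20 such groups where values are independent and normally spread. The groups here include counts of 0 and related measures of the same record, so 5 of 43 cannot be set against that rate. Alas2 in marrow NDEA 2 was at 479.0 CPM, above 323.3 to 341.2 CPM in the other 3 NDEA libraries. The summed globin share in marrow control 1, the shallowest library, was 23.66%, below 28.7% to 29.6% in the other 3 controls. LOC103694857 in liver control 2 was at 41.5 CPM, against 8.56 to 10.8 CPM in the other 3 controls, and made up 8.184% of the beta-globin counts of that library, against 3.15% to 3.98% in the others. Klf1 in liver control 3 was at 1.74 CPM, from 10 counts, with 0 counts in the other 3 controls.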

How the results depend on the processing

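The count of genes called in marrow, 0, became 2 with no filter beyond 1 count (0 higher, 2 lower), 69 with all 16 libraries in one fit, 1 with the mitochondrial share as a covariate, and 0 to 323 with single libraries left out, the 323 without marrow control 3. The 639 calls in liver became 148 with that covariate and 441 to 600 with single libraries left out, and library totals alone changed their split to 390 higher and 239 lower from 277 and 362. The 257 calls of the tissue difference became 107 to 547 with single libraries left out: 107 and 162 without liver control 4 and 3, 171 without marrow control 2 and 547 without marrow control 3. Over all genes together, the numbers of the replicates showed no sign of pairing the libraries. Same-numbered deviations correlated at -0.01 to 0.06 in marrow and at -0.01 to 0.01 in liver, and not every library correlated best with its own number. Pairing that touches only a part of the genes was not tested. With the replicate block, 289 genes were called in marrow. LOC103694857 (-1.39, limma-voom adjusted p = 0.0026) and Alas2 (-0.79, 0.037) were among them, and no other member's call changed. Both were also called in the fit of all 16 libraries (adjusted p = 0.040 and 0.041). Over 19 alternatives the adjusted p ran from 0.0016 to 0.82 for LOC103694857 and from 0.021 to 0.999 for Alas2, and neither changed direction. Single libraries left out gave log2 fold changes in marrow of -1.73 to -1.19 for LOC103694857, -0.96 to -0.67 for Alas2, -0.76 to -0.43 for Klf1 and 0.44 to 0.82 for Epor.

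Directions turned for values that lay near 0 in the main fit, apart from LOC103694857 in liver (0.37 ± 0.45 SE). For each the cause was not tested. With the mitochondrial covariate, the liver estimates of Alas2 and LOC103694857 did not end near 0. In marrow, Slc4a1 was -0.088 with the mitochondrial covariate and -0.0127 without NDEA 3 and 4 together, and Epb42 -0.0188 with the covariate. In liver, Alas2 was -0.018 with limma-trend, -0.19 with quality weights, -0.0677 with the replicate block, -1.12 with the covariate and -0.58 to 0.66 with single libraries left out, and LOC103694857 was -0.99 with the covariate. The tissue difference of Hba-a1 was 0.0585 with median-of-ratios scaling, 0.0027 with globins left out of the scaling, 0.16 with quality weights and -0.28 to 0.38 with single libraries left out; median-of-ratios scaling also moved the median of all genes in that difference to -0.19 from -0.32, and library totals moved that of liver to 0.12 from 0.01. The liver difference in globin share was 0.0015 percentage points without mitochondrial counts (exact permutation p = 1.0) and -0.098 to 0.037 with single libraries left out; in marrow it was -5.47 to -3.35. Depth limits Klf1, Epor, Ahsp and Epb42 in liver, where 3 counts in a library correspond to 0.437 to 0.600 CPM.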
